A study of Mus musculus with 15 samples.

Results

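The genes described here carry out fatty acid oxidation and ketogenesis in liver. They are a list of 37 genes chosen by name, of which 36 had a probe set that named only that gene and lay above the 40th percentile of its array on 3 or more arrays. The remaining gene, Acsl1, was not analysed here. The 36 stand among 9528 genes that passed the same filter, each represented by its brightest probe set. By textbook location or role, 20 are mitochondrial, 10 are peroxisomal (Eci2 is found in both organelles) and 6 are cytosolic, secreted or regulatory. The last group holds Pdk4, a mitochondrial kinase that was counted by its regulatory role and not among the 20.

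Mitochondria shorten fatty acids through repeated rounds of 4 reactions: dehydrogenation by an acyl-CoA dehydrogenase, hydration, a second dehydrogenation, and cleavage by a thiolase. Long chains enter as carnitine esters, and in hepatocytes much of the acetyl-CoA leaves as ketone bodies. Peroxisomes shorten very long and branched chains and bile acid precursors and pass the products on. PPARalpha, the nuclear receptor encoded by Ppara, switches on many genes of both routes during fasting.

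Total RNA from frozen liver tissue of 16-month-old mice was hybridised to Affymetrix mouse arrays. The 3 control livers came from mice heterozygous for the Mdr2 disruption, so the controls also carry 1 disrupted allele. The 6 non-tumorous livers and the 6 tumours came from homozygous Mdr2 knockout mice. Mdr2, also called Abcb4, exports phospholipid into bile, and mice without it develop chronic cholestatic liver disease followed by liver tumours. Samples are named by mouse: mice 3 and 4 each gave a liver and 1 tumour, mice 5 and 6 each gave a liver and 2 tumours (5-1 and 5-2, 6-1 and 6-2), and mice 1 and 2 gave a liver only. The 6 tumours therefore stand for 4 mice. Strain, sex and batch are not given in the sources used here.

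The Abcb4 signal was 779 to 1006 in the controls, 177 to 306 in the knockout livers and 122.5 to 681 in the tumours, so every knockout sample lay below every control. Whether that probe set lies in the disrupted part of the gene is not given in the sources used here. The labelled tissue carried hepatocyte transcripts throughout: all 8 hepatocyte markers measured, Alb and Ttr among them, were above the 40th percentile on all arrays. Their summed signal was 81038 to 89237 in controls, 65744 to 83844 in knockout livers and 60599 to 70869.8 in tumours. The summed signal of 8 macrophage markers was 1618 to 1792, 2597 to 4167 and 1044 to 6666 in the same order. Of 3 adipocyte markers measured, Adipoq and Lep were above the 40th percentile on no array, and Retn was in 3 of 3 controls, 0 livers and 1 tumour; the summed signal was 59.9 to 73.6 in controls, 18 to 45.4 in livers and 11.2 to 56.7 in tumours. Of 6 muscle and brown fat markers Myh1 and Ucp1 were above it on no array, and the sum was 79.1 to 105.5, 34 to 97.7 and 43.4 to 96.0 in the same order. The 3' to 5' ratios that track RNA integrity also differed: that of actin probe sets was 2.55 to 3.37 in controls, 1.74 to 2.74 in knockout livers and 1.51 to 2.06 in tumours. That of Gapdh probe sets was 1.13 to 1.23, 0.90 to 1.15 and 0.79 to 1.07 in the same order. Every tumour lay below every control in both ratios. A fit with the actin ratio as a covariate therefore cannot fully separate RNA integrity from group.

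Promoters were searched for the direct repeat that PPARalpha and its partner RXR bind, which is AGGTCA followed by any 1 base and AGGTCA again, on both strands and with up to 2 mismatches in its 12 fixed bases. RefSeq promoters on GRCm38.p6, running from 250 bases before to 50 bases after each start, were given for 31 of the 36 genes (33 promoters). No entry matched Acat1, Acaa2, Hsd17b4, Decr1 or Angptl4. A match was found in 5 of the 33 promoters (15.2%), against 1268 of 32851 promoters in the whole table (3.86%) and 306 of the 9933 promoters of genes tested (3.08%). A single exact AGGTCA, which can lie inside the repeat, was found in 6 of 33 (18.2%), against 16.3% of all promoters and 13.2% of those of genes tested. These matches describe letters only and show no binding. The 5 matches are shown because they are the only ones among these genes, each as it reads on the coding strand of its gene and in capitals throughout.
Fabp1: TGACCTATGGCCT
Acox2: AGGACAGAGGTGA
Echs1: AGGTCACGGGTCC
Etfa: TTACCTTTGCCCT
Slc25a20: AGGTGAAAGGTCG
The Fabp1 and Etfa matches lie on the opposite strand, and the Fabp1 match has 1 mismatch where the other 4 have 2. Its first base lies 67 bases before the start of Fabp1.

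The whole 300-base promoters are given for 4 genes: Fabp1 with the closest match, Slc25a20, whose product carries acylcarnitines into mitochondria, and Eci1 and Acaa1a, which fell in tumours against controls. Capitals mark the direct repeat match. Eci1 and Acaa1a hold neither the repeat nor an exact AGGTCA in this window. The promoters lie at chr6:71199629-71199928 on the plus strand for Fabp1, chr9:108661886-108662185 on the plus strand for Slc25a20, chr17:24426433-24426732 on the plus strand for Eci1 and chr9:119341044-119341343 on the plus strand for Acaa1a.
Fabp1: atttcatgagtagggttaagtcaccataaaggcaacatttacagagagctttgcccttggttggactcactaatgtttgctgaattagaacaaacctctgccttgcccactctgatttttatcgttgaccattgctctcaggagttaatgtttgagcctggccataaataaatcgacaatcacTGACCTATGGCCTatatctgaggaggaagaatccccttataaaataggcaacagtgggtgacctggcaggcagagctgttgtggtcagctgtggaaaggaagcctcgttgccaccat
Slc25a20: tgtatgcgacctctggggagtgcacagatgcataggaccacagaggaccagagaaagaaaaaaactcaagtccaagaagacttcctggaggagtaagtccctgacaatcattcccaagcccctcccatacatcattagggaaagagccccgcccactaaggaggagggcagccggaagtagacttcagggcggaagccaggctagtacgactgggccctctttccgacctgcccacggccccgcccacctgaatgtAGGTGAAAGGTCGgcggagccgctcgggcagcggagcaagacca
Eci1: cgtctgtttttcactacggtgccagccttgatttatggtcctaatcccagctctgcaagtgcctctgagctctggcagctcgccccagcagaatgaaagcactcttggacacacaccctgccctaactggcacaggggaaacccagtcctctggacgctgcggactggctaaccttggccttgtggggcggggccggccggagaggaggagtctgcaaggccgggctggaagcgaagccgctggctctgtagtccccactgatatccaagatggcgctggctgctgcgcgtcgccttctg
Acaa1a: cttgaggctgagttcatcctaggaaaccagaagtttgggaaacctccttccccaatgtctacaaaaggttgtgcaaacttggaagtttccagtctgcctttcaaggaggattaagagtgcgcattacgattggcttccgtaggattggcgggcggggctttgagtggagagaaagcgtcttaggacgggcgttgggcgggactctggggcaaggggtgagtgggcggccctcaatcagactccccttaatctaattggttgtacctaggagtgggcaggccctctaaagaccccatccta

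Non-tumorous knockout livers were compared with heterozygous livers first. Most of the fatty acid oxidation genes had a slightly lower value in the knockout livers. Whether any single gene passed the test depended on the settings of the fit. The log2 change was below 0 for 34 of 36 genes, including all 20 mitochondrial and all 10 peroxisomal members, with a median of -0.30; over all 9528 genes 52.2% were below 0 and the median was -0.02. None of the 36 passed the test (limma with Benjamini-Hochberg adjustment over all genes, adjusted p under 0.05), where 1.7% of all genes did. This fit pooled the variance of each gene over controls, livers and tumours, so the spread of the tumours entered these errors. The median SD of the 36 on the log2 scale was 0.17 in controls, 0.25 in knockout livers and 0.50 in tumours. With only livers and controls in the fit 6 passed, all lower (Acat1, Eci1, Eci2, Acaa1a, Ppara and Ehhadh). In that fit 349 of all 9528 genes passed lower and 651 higher. Acat1 and Eci1 passed without tumour 5-1, where 63 of all genes passed lower and 242 higher. At an unadjusted p under 0.05, 6 of the 36 were lower and 0 higher, against 6.8% and 8.93% of all genes. In bulk tissue, fewer hepatocytes and less RNA per hepatocyte cannot be told apart. The hepatocyte markers had a median log2 change of -0.24 with 7 of 8 below 0, and the macrophage markers one of 0.95. The 8 stellate and myofibroblast markers had a median of 0.65 with 1 that rose (summed signal 1335.5 to 1571 in controls, 2022 to 4555 in livers), the 7 endothelial ones 0.25 and the 2 pancreas ones tested -0.70 (693 to 922 and 254 to 386). Their part in the result was not tested. With the actin 3' to 5' ratio as a covariate the median of the 36 became -0.13 with 21 below 0.

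None of the 3 genes that bring long chains into mitochondria passed the test, and differences between them were not tested. Cpt1a encodes the carnitine palmitoyltransferase that sets the pace of entry. Its signal was 865, 929 and 1109.7 in controls and ran from 652 through a median of 1020.7 to 1213 in knockout livers, so the livers spanned all 3 controls. Its log2 change was -0.01 ± 0.20 (SE), and the sign turned under quantile normalization or median centring of the arrays. The other 2 probe sets of Cpt1a, with mean signals of 52.7 and 99.0 against 933 for the one used, gave -0.71 and -0.77, and the mean of all 3 gave -0.50. Slc25a20, the carnitine-acylcarnitine carrier, ran from 954 to 1103 in controls and from 441 to 952 in knockout livers; its log2 change was -0.47 ± 0.26 (adjusted p = 0.413, limma), and its second probe set gave 0.18. Cpt2, which reforms acyl-CoA inside, gave -0.26 ± 0.34.

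The 4 acyl-CoA dehydrogenases, which act on chains of decreasing length, stayed close to each other. Acadvl, Acadl, Acadm and Acads had log2 changes of -0.31, -0.32, -0.24 and -0.30. For the medium-chain enzyme Acadm the control signals were 2107, 1961 and 2568, and the livers ran from 1437 through a median of 1877 to 2295. Those groups overlapped. Hadha and Hadhb, the subunits of the trifunctional protein, gave -0.31 and -0.26, Echs1 (hydratase) -0.12, and Hadh (hydroxyacyl-CoA dehydrogenase) -0.14.

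The lowest mitochondrial value belonged to Acat1, the thiolase that joins and splits acetoacetyl-CoA in ketone body metabolism. Its signal was 2370.4, 2334 and 2894 in controls and 1177, 1263, 856.5, 1379, 1818 and 853 in livers 1 to 6, with means of 2533 ± 314 (SD, n = 3) and 1224 ± 361 (SD, n = 6). Every knockout liver lay below every control. The log2 change was -1.09 ± 0.29, or 2.12-fold lower (adjusted p = 0.0620, limma), and its other probe sets gave -1.02 and -1.38. It passed the threshold in 8 alternatives, among them the fit of only these 2 groups, the mean of its probe sets, the actin covariate, and the fits without liver 5, tumour 4 or tumour 5-1. Acat1 lies at chr9:53580522-53610350 (GRCm38.p6).

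Eci1, the isomerase that moves double bonds of unsaturated fatty acids, showed the same separation. Control signals were 1035, 859 and 1015.5, and livers 1 to 6 gave 601, 645, 544.5, 561, 631 and 819.7. All 6 livers lay below the lowest control, liver 6 by the least. The log2 change was -0.61 ± 0.17 (adjusted p = 0.0705, limma), and it passed without liver 6 or tumour 5-1. Decr1, which also serves unsaturated chains, gave -0.17 ± 0.33, and Acot2, a mitochondrial thioesterase, gave -0.76 ± 0.33 at signals close to background (above the 40th percentile in 3 of 3 controls and 2 of 6 livers). The electron carriers Etfa and Etfb gave -0.13 and -0.19, and Etfdh, which hands their electrons to ubiquinone, gave -0.41. Bdh1, which turns acetoacetate into hydroxybutyrate, gave -0.22 ± 0.31.

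Peroxisomal members gave a median of -0.41, against -0.26 for the mitochondrial ones; the members are not replicates and this difference was not tested. With the actin covariate the order turned, to -0.15 for peroxisomal and -0.16 for mitochondrial members. Eci2 had the lowest value at -0.78 ± 0.25 (adjusted p = 0.131, limma). Its signals were 1495, 931 and 1039 in controls and ran from 514 through a median of 599 to 1034.6 in livers, where liver 6 alone reached the controls. Acaa1a, a peroxisomal thiolase, gave -0.72 ± 0.23 (adjusted p = 0.118, limma), with control signals of 450.0, 371.5 and 323 and liver signals of 205.5, 242.5, 198, 207, 197.5 and 328. Liver 6 alone reached the controls. A second Acaa1a probe set gave 0.07, and the pair of probe sets shared with its near-identical copy Acaa1b gave -0.41 and -0.45, so the 2 copies are not cleanly separated; the probe set used for Acaa1b gave -0.27.

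Crot, which prepares shortened chains for export, gave -0.62 ± 0.33. The bifunctional enzyme Ehhadh, a classical PPARalpha target, gave -0.53 ± 0.30. Its signal was 830, 978 and 1135 in controls and 569 to 832 in livers, where liver 6 just exceeded the lowest control. Pex11a, a peroxisome division protein, gave -0.52, Scp2, a thiolase and lipid carrier, -0.30, Acaa1b -0.27, Acox2, the oxidase of bile acid precursors, -0.26, Hsd17b4 (the other bifunctional enzyme) -0.24 and Decr2 -0.19. A second Hsd17b4 probe set gave 0.05.

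Among regulators and delivery genes, Ppara was 1442.5, 1653 and 1834 in controls and 789, 1128, 877, 1210.0, 1459 and 855 in livers 1 to 6. Only liver 5 reached the controls, and the log2 change was -0.67 ± 0.27 (adjusted p = 0.238, limma). Fabp1, the fatty acid-binding protein of hepatocyte cytosol, was 15719 to 18545 in controls and 10103 to 15426 in livers, without overlap, at a log2 change of -0.33 ± 0.37. Angptl4, a secreted inhibitor of lipoprotein lipase, gave -0.51 ± 0.39, and Acot1, a cytosolic thioesterase, -0.81 ± 0.55.

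Pdk4, the kinase that shuts pyruvate out of oxidation, was one of 2 members above 0, at 0.57 ± 0.54. Its signal was 21 to 30.0 in controls, where 1 of 3 arrays was above the 40th percentile, and 29 to 62 in livers. The fasting hormone Fgf21 was 211, 44 and 33 in controls and 45 to 126 in livers, at 0.01 ± 0.51. Across all 36 members, groups did not overlap for 5 that were lower (Acadvl, Acat1, Eci1, Slc25a20 and Fabp1) and 0 that were higher, where 6.79% and 8.03% of all genes separated in those directions.

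**Figure D1:**
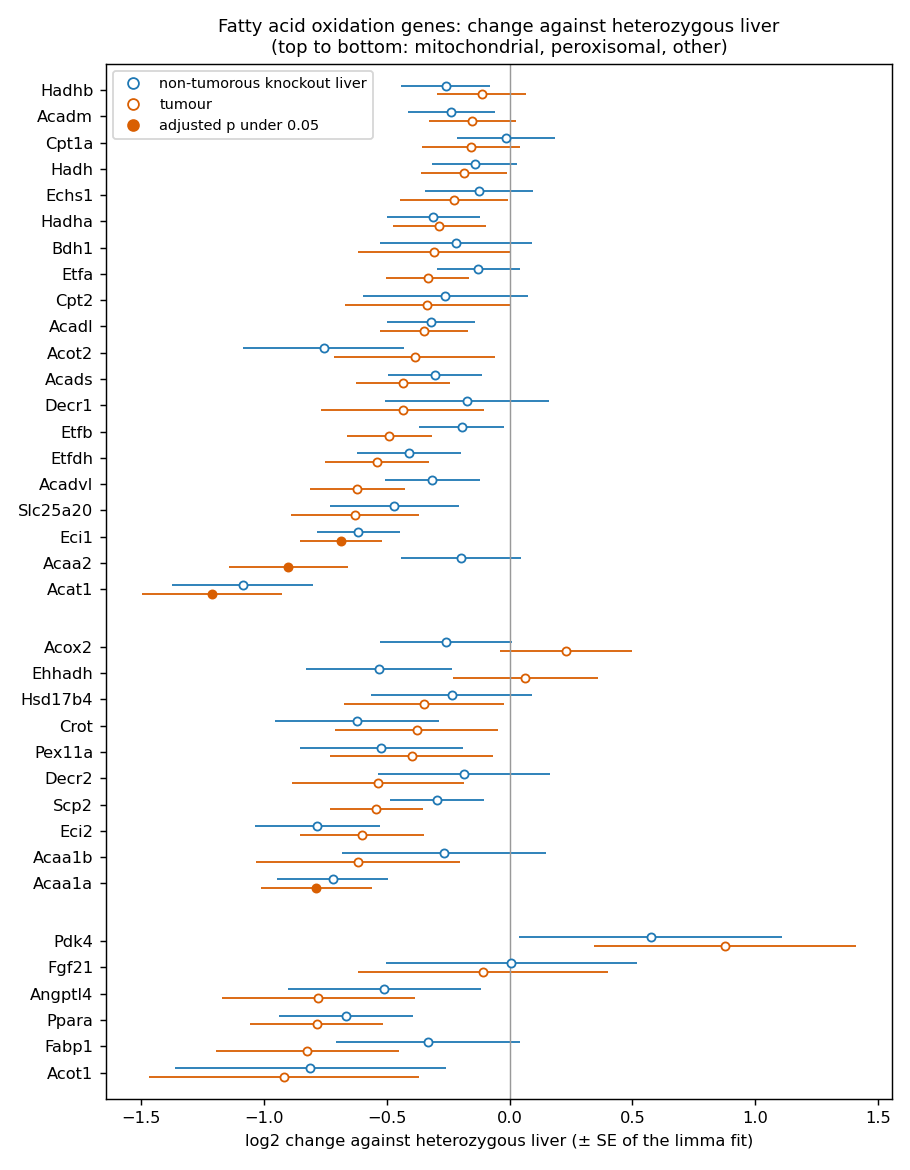
Log2 change of each of the 36 genes against heterozygous liver (horizontal axis, ± SE of the limma fit) for non-tumorous knockout livers (blue) and tumours (orange), with mitochondrial, peroxisomal and other genes from top to bottom. Nearly all points lie left of 0, and the 4 filled points (Acat1, Eci1, Acaa2 and Acaa1a, all in tumours) passed an adjusted p of 0.05.

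Tumours were then compared with heterozygous livers. Here 4 of the 36 genes passed the test, where 6.97% of all genes did. All 4 fell and 0 rose, against 2.96% of all genes that fell and 4.01% that rose. At an unadjusted p under 0.05, 13 of the 36 were lower and 0 higher, where 10.7% and 11.7% of all genes were. The 4 were Acat1, Eci1, Acaa2 and Acaa1a, or 3 of 20 mitochondrial and 1 of 10 peroxisomal members. The log2 change was below 0 for 33 of 36, with a median of -0.42, against 52% and -0.02 over all genes. The hepatocyte markers had a median of -0.35 with 8 of 8 below 0, of which 1 (Tat) fell, and the macrophage markers one of 1.01, of which 4 rose. The stellate and pancreas markers gave -0.16 and -0.56, with 1 that rose and 1 that fell (Cela1). Their part in the result was not tested. Tumours and livers share the same 3 controls, so the similarity of the 2 sets of changes is not independent evidence.

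Acat1 was 1414, 723, 1953.5, 768, 897 and 1164 in tumours 3, 4, 5-1, 5-2, 6-1 and 6-2. Every tumour lay below the lowest control of 2334, tumour 5-1 by the least. The tumour mean was 1153 ± 471 (SD, n = 6). Acat1 fell by 1.21 ± 0.29 on the log2 scale, 2.32-fold (adjusted p = 0.0161, limma), and the other 2 probe sets gave -0.64 and -1.70. Eci1 was 563, 629, 455, 607, 621 and 739 in the same order, all below the lowest control of 859. The means were 970 ± 96.4 in controls (SD, n = 3), 634 ± 99.1 in livers and 602 ± 92.7 in tumours (SD, n = 6). Eci1 fell by 0.69 ± 0.17, 1.61-fold (adjusted p = 0.0191, limma).

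Acaa2, the last thiolase of the mitochondrial cycle, was 2632, 2774 and 2696 in controls. Its tumour signals were 1062, 2289.6, 925, 1199, 2234 and 1491. Tumours 4 and 6-1 stood closest to the controls and no tumour reached one; the tumour mean was 1533 ± 595 (SD, n = 6), next to 2701 ± 71.0 in controls (SD, n = 3). It fell by 0.90 ± 0.24, 1.87-fold (adjusted p = 0.0336, limma), and the other probe sets gave -0.75 and -0.54. Acaa1a was 171, 204, 142, 242, 293 and 278 in the tumours, all below the lowest control of 323. It fell by 0.79 ± 0.23, 1.72-fold (adjusted p = 0.0437, limma), but its second probe set gave -0.16 and the shared ones -0.40 and -0.59.

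These calls rest on 3 controls. They also rest on a variance pooled with the knockout livers. The median SD of the 36 on the log2 scale was 0.25 in those livers, below the 0.50 of the tumours. The count of 4 became 0 without control 1 or control 3, 1 (Eci1) without control 2 and 2 without tumour 5-2; it was 0 when the fit held tumours and controls alone, and 1 (Acat1) with the actin ratio as a covariate, where 20 of 36 changes were below 0 with a median of -0.11. Over all genes the count of 664 became 250, 249 and 222 without control 1, 2 or 3 and 537 without tumour 5-2. It was 124 with the 2 groups alone and 24 with the actin ratio.

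**Figure D2:**
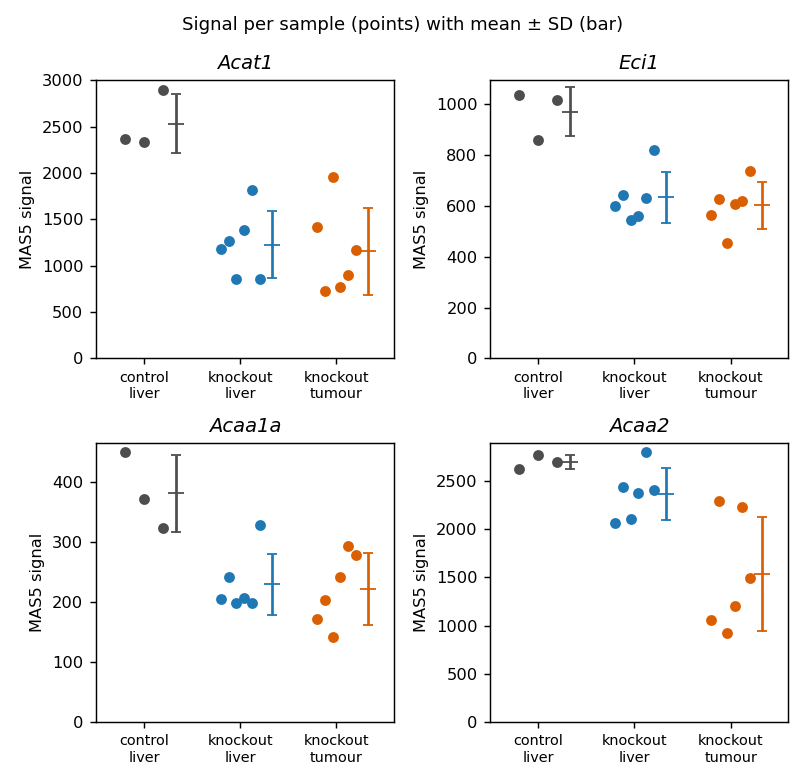
MAS5 signal (vertical axis, from 0) of Acat1, Eci1, Acaa1a and Acaa2 in the 3 control livers, 6 knockout livers and 6 tumours, 1 point per sample, with bars for the mean ± SD. Acat1 and Eci1 are already below the controls in non-tumorous livers, while Acaa2 spreads from 925 to 2289.6 in tumours.

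Other members had values short of the threshold. Acadvl, the very-long-chain dehydrogenase, gave -0.62 ± 0.19 (adjusted p = 0.0632, limma). Ppara gave -0.79 ± 0.27 (adjusted p = 0.0934, limma), with tumour signals of 520 (tumour 3), 714.5, 1144, 1020.3, 1018 and 1576 (tumour 6-2), the last within the controls. Etfb, with 1749.9 to 2521 in tumours against 2570.5 to 3196 in controls, gave -0.49 ± 0.17 (adjusted p = 0.0994, limma). Groups did not overlap for 7 lower members (Acaa1a, Acaa2, Acat1, Etfb, Eci1, Slc25a20 and Scp2) and 0 higher ones, against 6.13% and 5.34% of all genes.

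Pdk4, Acox2 and Ehhadh had values above 0, and Acadm and the brightest probe set of Cpt1a had values close to it. Acox2 gave 0.23 ± 0.27 and Ehhadh 0.06 ± 0.30, the only peroxisomal members above 0 by the probe set used. Hsd17b4 gave -0.35, but its second probe set, with a mean signal of 975 against 1983 for the one used, gave 0.23. Pdk4 gave 0.88 ± 0.53 (adjusted p = 0.355, limma), and its tumour signals were 32, 322, 38, 19, 29 and 82, so that tumour 4 alone stood far above the rest. Cpt1a gave -0.16 ± 0.20, with tumour signals from 661 through a median of 869 to 1049; its other probe sets gave -0.50 and -0.83, and the mean of all 3 gave -0.49. Acadm gave -0.15 ± 0.18, with 1544 to 2481 in tumours, where the range held all but the highest control.

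**Figure D3:**
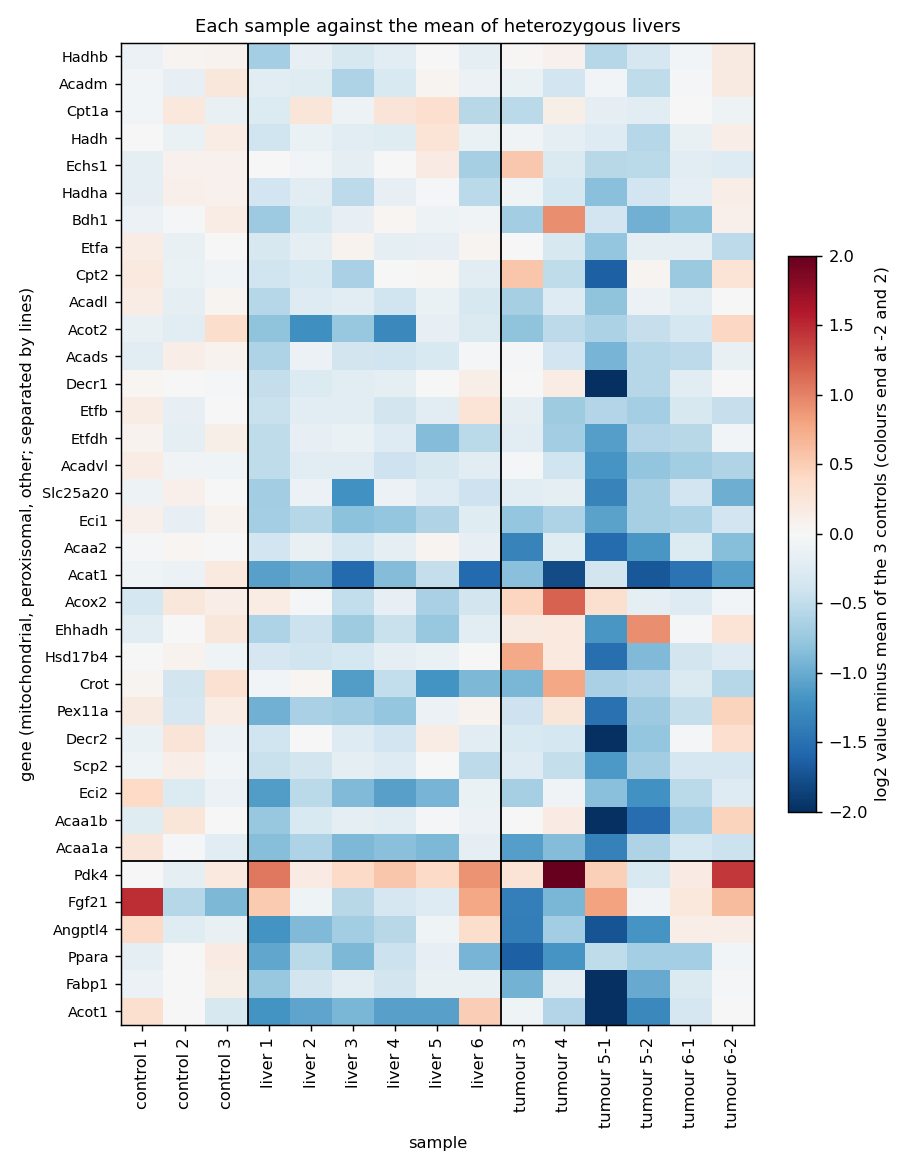
Each sample's log2 value minus the mean of the 3 controls (colour, ending at -2 and 2) for the 36 genes (rows, mitochondrial, peroxisomal and other from top to bottom) in controls, knockout livers and tumours (columns). The livers are mostly pale blue, Acat1 is the darkest mitochondrial row, and tumour 5-1 is the darkest column.

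Tumours were also compared with non-tumorous knockout livers. None of the 36 passed the test, where 0.136% of all genes did (0.021% higher, 0.115% lower); at an unadjusted p under 0.05, 2 were higher (Ehhadh and Acox2) and 1 lower (Acaa2), against 4.32% and 6.01% of all genes. The log2 change was below 0 for 26 of 36 (48.7% of all genes), with a median of -0.11 for the 36 and 0.01 for all genes. By organelle the medians were -0.11 (mitochondrial, 16 of 20 below 0) and 0.03 (peroxisomal, 5 of 10). The stellate and endothelial markers had medians of -0.40 and -0.33, and the hepatocyte and macrophage markers -0.15 and 0.15; their part was not tested. Leaving out each sample in turn gave peroxisomal medians of -0.09 (without tumour 6-2) to 0.18 (without tumour 5-1) and mitochondrial ones of -0.20 (without tumour 3) to -0.02 (without tumour 5-1), so the sign of the peroxisomal median depended on single samples. No member separated the groups without overlap, in either direction (0.567% of all genes lower, 0.126% higher).

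Acaa2 had the smallest p, at -0.70 ± 0.20 on the log2 scale (adjusted p = 0.209, limma). Livers 1 to 6 were 2064, 2444, 2105, 2377.5, 2803 and 2414, so tumours 4 and 6-1 lay within the livers and the other 4 tumours below all of them. All 3 probe sets were lower, at -0.70, -0.71 and -0.63. The 40 tested genes nearest to Acaa2 on its chromosome had a mean between -0.09 and 0.01 in each tumour and a median between -0.32 (tumour 3) and 0.0027, where Acaa2 itself ran from -1.34 to -0.04 against the mean of the livers. Around Hsd17b4 the neighbours moved too in some tumours: tumour 3 gave 0.99 for Hsd17b4 and 0.71 for its 40 neighbours, tumour 4 gave 0.43 and 0.39, and tumour 5-1 gave -1.27 and 0.36. In the fit of tumours against livers Hsd17b4 gave -0.11, and its second probe set gave 0.18.

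Ehhadh gave 0.59 ± 0.24 (adjusted p = 0.402, limma): livers were 631, 718, 594, 712, 569 and 832, and tumours 1098, 1117, 427, 1862, 959 and 1179. Of the tumours 5 stood above every liver, and tumour 5-1 below every liver. Acox2 gave 0.49 ± 0.22 (adjusted p = 0.455, limma), with livers from 788 through a median of 1031 to 1375 and tumours of 1663, 2810.5, 1544, 1082, 1038 and 1187. The groups overlapped in tumours 5-2, 6-1 and 6-2. Etfb gave -0.30 ± 0.14 (adjusted p = 0.490, limma); its livers ran from 2117 through a median of 2480 to 3482 and its tumours from 1749.9 through 1999.9 to 2521, with overlap.

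Matched samples give a second view, since 4 mice gave both tissues. Against the liver of its own mouse, Acox2 was higher in 6 of 6 tumours (by 0.11 to 1.35 on the log2 scale) and so was Crot (0.22 to 1.27), both peroxisomal. Acaa2 was lower in 6 of 6 (by -1.59 to -0.05), as were Etfa (-0.60 to -0.01) and Angptl4 (-1.64 to -0.14). One sign in all 6 tumours was seen for 3 of 36 members downward and 2 upward, against 3.84% and 3.01% of all genes, and tumours of 1 mouse share their liver. Ehhadh was higher in 5 of 6 and Etfb lower in 5 of 6. Against the mean of the 6 livers, Acox2 and Acaa2 kept their sign in every tumour, but the other genes did not. Crot was -0.29 in tumour 3 and -0.03 in tumour 5-1, Etfa 0.11 in tumour 3, and Angptl4 0.64 in tumours 6-1 and 6-2. In the fit of tumours against livers Crot gave 0.24 ± 0.27 (adjusted p = 0.826, limma). Angptl4 gave -0.27 ± 0.32 (adjusted p = 0.839, limma) and Etfa -0.21 ± 0.14 (adjusted p = 0.635, limma).

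**Figure D4:**
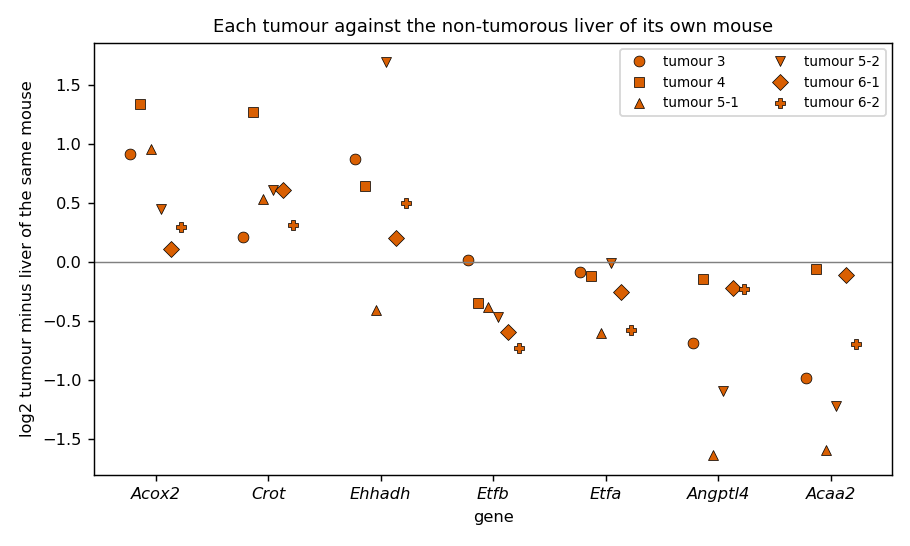
Log2 difference between each tumour and the non-tumorous liver of its own mouse (vertical axis) for 7 genes, 1 symbol per tumour; these genes were chosen after their values were seen. Acox2 and Crot lie above 0 in all 6 tumours and Etfa, Angptl4 and Acaa2 below 0, while Ehhadh ranges from -0.41 (tumour 5-1) to 1.70 (tumour 5-2).

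The tumours differed more from each other than the livers did. The median SD of the 36 genes on the log2 scale was 0.17 in controls, 0.25 in knockout livers and 0.50 in tumours, against 0.25, 0.29 and 0.43 over all genes. Peroxisomal members gave 0.64 in tumours and mitochondrial ones 0.35. The SD was larger in tumours than in livers for 33 of 36 members (91.7%; 17 of 20 mitochondrial, 10 of 10 peroxisomal), against 73.2% of all genes. Without tumour 5-1 it was larger for 26 of 36 (72.2%), against 68% of all genes, and the median SD was 0.41.

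Tumour 5-1 held the lowest of the 6 tumour values for 23 of 36 members (63.9%), against 16.6% of all genes: 13 mitochondrial and 7 peroxisomal ones. Fabp1 was 3051 there and 8519.5 to 16570.2 in the other tumours, Decr1 417.7 against 1129.9 to 1868, and Acaa1b 2478 against 3671 to 14433. Acat1 went the other way and was highest in tumour 5-1. Against the mean of the livers, the 40 tested genes nearest to Decr1 had a mean of -0.36 in tumour 5-1. Those around Cpt2 and Scp2, which lie near each other on the same chromosome, gave -0.35 and -0.36. Those around Fabp1 and Acaa1b gave 0.04 and 0.20, and the median of all genes was 0.13. This tumour also had the highest summed macrophage markers (6666), the lowest summed hepatocyte markers (60599) and the lowest actin ratio (1.51); their part in the result was not tested. The second tumour of the same mouse, 5-2, had a median of -0.61 against the controls, next to -0.89 in tumour 5-1 and -0.05 in tumour 6-2. Tumour 6-2 held the highest tumour value for 14 of 36 members (38.9%, against 15% of all genes). It had the next highest summed macrophage markers (5512).

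Leaving out both tumours of mouse 5, an alternative chosen after the data were seen, turned the median of tumours against knockout livers from -0.11 to 0.07, with 10 of 36 below 0 in place of 26. Over all genes that median was -0.02. Ehhadh then passed the threshold (0.68, higher), where 5 of all 9528 genes passed higher and 24 lower. Against controls the median was -0.27, with 31 of 36 below 0, and it was -0.05 over all genes. There 2 members (Acat1 and Eci1) fell, where 265 of all genes fell and 310 rose.

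The livers were closer together. Liver 1 held the lowest liver value for 18 of 36 members (50%, against 15% of all genes). Livers 5 and 6 held the highest for 15 and 13 (41.7% and 36.1%, against 17.1% and 18.4% of all genes). The median against controls ran from -0.50 in liver 1 to -0.14 in liver 5, which also had the highest summed hepatocyte markers of the livers (83844). Liver 6, the next at -0.19, had the lowest (65744).

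Mitochondrial and peroxisomal members parted most in tumour 4. There the 10 peroxisomal genes had a median of 0.18 against the controls and the 20 mitochondrial genes -0.34. Crot (2439), Acox2 (2810.5), Hsd17b4 (2534), Acaa1b (11874), Ehhadh (1117) and Eci2 (1074) all exceeded every liver in that tumour. Pex11a did so too, at 0.77 above the mean of the livers on the log2 scale. The peroxisomal members Acaa1a, Decr2 and Scp2 did not. Of the 20 mitochondrial members only Bdh1 (3462), Hadhb (1745) and Decr1 (1868) exceeded every liver there. Tumour 4 held the highest tumour value for 5 mitochondrial and 3 peroxisomal members, and the lowest for 2 and 0. Over all 36 members it held the highest for 25% and the lowest for 5.56%, against 10.9% and 26.1% of all genes. Tumour 5-1 showed the opposite order, at -1.26 for peroxisomal and -0.79 for mitochondrial members. The other tumours gave -0.28 and -0.16 (tumour 3), -0.71 and -0.57 (tumour 5-2), -0.35 and -0.29 (tumour 6-1) and -0.16 and -0.08 (tumour 6-2), peroxisomal first. In 5 of the 6 livers the peroxisomal median was the lower one. Tumour 4 also had the lowest summed macrophage markers (1044). Against the mean of the livers, the tested genes nearest to Crot, Bdh1, Decr1 and Hsd17b4 had means of 0.41, 0.37, 0.43 and 0.39 there. Those around Ehhadh and Acox2 gave 0.21 and 0.17. Those around Hadhb, Acaa1b, Eci2 and Pex11a gave -0.12, -0.29, -0.17 and -0.08, and the median of all genes was -0.10. The part of the neighbourhood in these values was not tested.

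**Figure D5:**
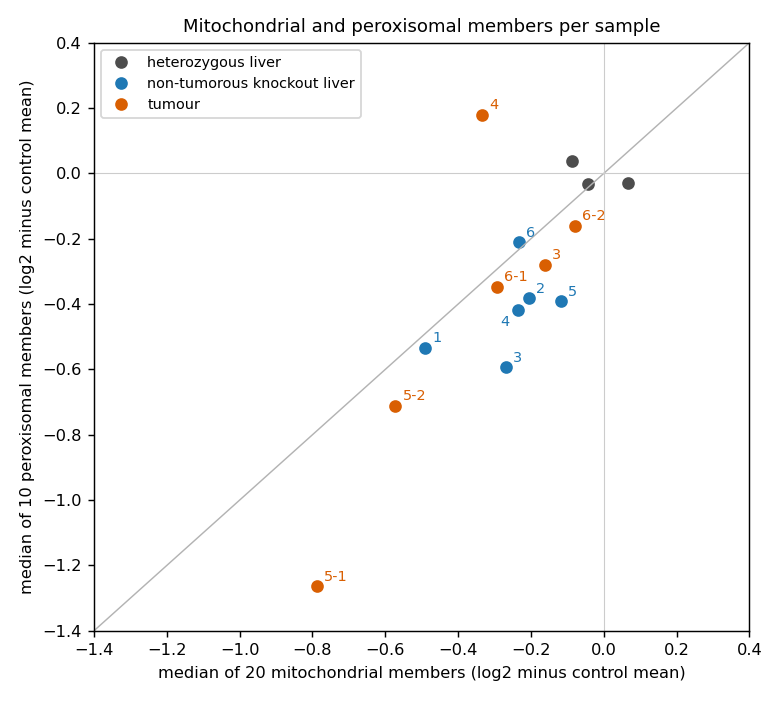
Median of the 20 mitochondrial genes (horizontal axis) and of the 10 peroxisomal genes (vertical axis) in each sample, as log2 value minus the mean of the controls; numbers name the livers and tumours, and the grey diagonal marks equal medians. Tumour 4 lies above the diagonal at 0.18, tumour 5-1 lies lowest at -1.26, and most other knockout samples lie just below the diagonal.

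Related genes outside the 36 were counted from a list of 104 names, of which 81 were tested. In knockout livers against controls 1 rose and 0 fell, where 1.39% and 0.315% of all genes did. In tumours against livers none passed (Slc27a2, the brightest of them and an acyl-CoA synthetase of very long chains, gave -0.24 ± 0.17). In tumours against controls 6 of the 81 rose and 6 fell, where 4.01% and 2.96% of all genes did. Of the 28 peroxisome genes 0 rose and 4 fell. Nudt7, a peroxisomal CoA hydrolase, fell by 2.31 ± 0.56, from 4444 to 5809 in controls to 160.0 to 2691 in tumours (adjusted p = 0.0181, limma). Pecr, a peroxisomal enoyl-CoA reductase, fell by 0.98 ± 0.20 (adjusted p = 0.00748, limma), and Pex16, a peroxisome assembly factor, by 0.95 ± 0.23 (adjusted p = 0.0175, limma).

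By fitted change the 3 largest rises in tumours were those of Fabp4, Cidec and Acot9. Fabp4, a fatty acid-binding protein of adipocytes and macrophages, was 37 to 65 in controls and 78 to 3280 in tumours, a rise of 3.71 ± 0.79 (adjusted p = 0.00931, limma), with tumour 6-1 lowest. Cidec, a lipid droplet protein, was 1.2 to 4.6 in controls, below the 40th percentile on all 3 arrays, and 20.7 to 383 in tumours, where 4 of 6 arrays were above it. It passed the test (adjusted p = 0.0317, limma), but against controls not above background the size of its change depends on the added constant and is not given. Acot9, a mitochondrial thioesterase, was 22.5 to 50.1 in controls, 87 to 208 in livers and 118 to 283 in tumours. It rose by 1.89 ± 0.29 in livers (adjusted p = 0.00265, limma) and by 2.24 ± 0.29 in tumours (adjusted p = 0.00029, limma).

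Of 8 ketone body genes outside the 36, 4 were tested and 1 rose in tumours against controls; it was named after its value was seen. Oxct1 encodes the enzyme that uses ketone bodies in other tissues and is scarce in normal hepatocytes. It was 17.2 to 24.3 in controls, below the 40th percentile on all 3 arrays, 55 to 117 in livers, and 46, 50, 605, 131, 58 and 97 in tumours 3, 4, 5-1, 5-2, 6-1 and 6-2. It passed the test (adjusted p = 0.0336, limma); the size of the change against such controls is not given. Tumour 5-1 stood far above the others.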

How the data were processed

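Expression was measured in 15 mouse liver samples, 1 array each. The deposited values are a linear intensity, the MAS5 signal per the submitters' processing notes, already scaled on each array by the authors; the trimmed mean was 150.067 to 150.085 on all arrays. The design text names a larger array than the 22690 probe sets given. Of these 20380 name 1 gene, 691 several and 1555 none, from the platform annotation; 64 are controls.

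Signals were taken as log2(signal + 9.1), 9.1 being the 20th percentile of all signals, so changes of dim genes are understated. Probe sets above the 40th percentile on 3 or more arrays were kept, and the brightest per gene gave 9528 genes. limma 3.58.1 (R 4.3.3) fitted all 15 arrays with empirical Bayes and a mean trend, with the animal as a random block (consensus correlation -0.02) and Benjamini-Hochberg adjustment. The same animal pairs the tissues per the labels; correlations of deviations within animals were -0.155 to 0.0879. The fit was also run on simulated data, with normal values drawn independently for each array. That run held no effect of the animal or of RNA integrity. Values per sample were given for 5 preset genes, those called and the 4 with the smallest p per comparison; of related genes, the 3 largest rises and falls called, or the brightest. The members and lists were chosen with earlier results of these data known. Other constants, scalings, filters, probe set rules, sample sets and blocks, and each sample left out, were tried. Precision is limited by the number of arrays.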

Additional observations from a re-analysis of the deposited data

Results flagged for a closer look

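The gaps at the lowest and the highest sample of a group were checked on the linear signal, for 36 genes in 6 livers and in 6 tumours. A gap exceeded Dixon's 95% critical value in 10 of 72 checks, each time at the high end. Chance flags about 1 in 20 such groups, or 3.6 here, if the values are normal and the genes independent. Neither was checked for these linear signals from shared arrays, so the 10 cannot be weighed against the 3.6. Liver 6 was the high sample for Acaa1a (signal 328.2), Etfb (3482.1), Eci1 (819.7) and Acot1 (128.4), and liver 5 for Hadh (8770.4). Tumour 4 was the high sample for Acox2 (2810.5), Crot (2438.9) and Pdk4 (322.1), tumour 3 for Echs1 (2457.9) and tumour 6-2 for Acot2 (52.3, at signals close to background). Liver 6 also had the highest actin 3' to 5' ratio of the livers (2.74), and tumour 4 that of the tumours (2.06); their part in these values was not tested.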

How the results depend on the processing

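With 3 controls and 4 mice behind 6 tumours, the counts of calls moved with the settings. In knockout livers against controls the count of 0 became 1 with the mean of all probe sets of a gene, 6 with only the 2 groups in the fit, 2 with the tumours of 1 mouse averaged, 1 with the actin ratio as a covariate and 2 without both tumours of mouse 5; leaving out each sample in turn gave 0 to 2. In tumours against controls the count of 4 became 2 with median centring, with the mean of probe sets, without a mean trend and without both tumours of mouse 5, 0 with only the 2 groups and 1 with the actin ratio; leaving out each sample gave 0 to 5. In tumours against knockout livers it became 1 (Ehhadh) without mouse 5's tumours and stayed 0 when each sample was left out. With the animal as a fixed replicate block in the 4 matched animals it was 0, with medians of -0.11 (mitochondrial) and -0.05 (peroxisomal); without any block it was 0, 0 and 4 in the 3 comparisons, and no call changed. The actin covariate moved the peroxisomal median to -0.15 in livers and 0.27 in tumours against controls, next to mitochondrial medians of -0.16 and -0.22. Of 28 alternatives, Acat1 and Eci1 kept their calls in 24 each, Acaa2 in 18 and Acaa1a in 10. Over all genes the counts of 162, 13 and 664 became 1000, 0 and 124 with 2 groups alone and 22, 0 and 24 with the actin covariate. The first became 349 with tumours averaged, 101 without a mean trend and 386 without mouse 5's tumours, and the second 50, 6 and 29; the second was 4 with no added constant and 0 with the fixed block. With the mean of probe sets the first was 110 and the third 605. The third became 591 with median centring, 537 without a mean trend and 575 without mouse 5's tumours. Leaving out each sample gave 36 to 305, 0 to 67 and 222 to 783.

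Some changes turned sign, most of them small; that of Eci2 in tumours against controls was -0.60. The cause was not tested. Against controls, Cpt1a in livers became 0.0032 with quantile normalization and 0.0085 with median centring (-0.0909 to 0.0926 over samples left out), while the mean of its 3 probe sets gave -0.50; with the actin covariate Acaa2 became 0.16, Etfb 0.098 and, in tumours, Eci2 0.34; Ehhadh in tumours ran from -0.11 to 0.31 over samples left out. In tumours against livers, Cpt1a became 0.0035 with the mean of probe sets, Acaa1a 0.13 and Eci1 0.023 with the actin covariate, and 0.021 and 0.011 without mouse 5's tumours. Over samples left out Acaa1a ran from -0.16 to 0.0461, Eci1 from -0.14 to 0.0043, Ppara from -0.26 to 0.0515 and Pdk4 from -0.17 to 0.54.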
